A study of Mus musculus with 316 samples.

Results

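The genes described here encode the proteins of the mitochondrial respiratory chain and of the ATP synthase, together with a few nuclear genes that share their symbols and assist their assembly. They were taken by symbol from a single-cell RNA-seq table of mouse cells: rows that begin with mt-, Nduf, Uqcr, Atp5 or one of Cox4 to Cox8, and the 4 Sdh genes, without symbols holding -ps. The rule used no measured value. It found 105 of 21970 mouse gene rows, of which 13 are mRNAs encoded in the mitochondrial genome and 92 are nuclear genes. Of the nuclear genes, 82 encode subunits: 36 of complex I, 4 of complex II, 8 of complex III, 19 of complex IV and 15 of complex V. The other 10 are 7 complex I assembly factors of the Ndufaf family, the supercomplex factor Cox7a2l, and Atp5s and Atp5sl, which are not counted with any complex here.

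The mouse cells fall into 4 labelled groups, and each sample was 1 cell. Eng_ES-HSC were engrafted haematopoietic stem cells (HSC) derived from embryonic stem cells, with 49 cells deposited. Eng_BM-HSC were engrafted HSC derived from bone marrow, with 95 cells. FL_HSC were HSC from fetal liver, with 94 cells, and ESC were embryonic stem cells, with 78 cells. The design text describes HSC-like cells that were made by differentiating embryonic stem cells and were later transplanted. The labels give no strain, age, genotype, transgene, treatment, time after transplantation, host, sort gate or library kit, so none of these can be set beside a result. They name no animal or culture, and each group had a single library identifier. A group was therefore treated as 1 sample, no test was made between groups, and group and library cannot be told apart.

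Values are TPM, an abundance corrected for transcript length and scaled to the total of the cell, and levels are given as log2(TPM + 1), where 1 is the pseudocount. Detection of a gene in a cell meant a TPM of at least 1. Cells with under 1000 detected genes were left out, which kept 21 cells of Eng_ES-HSC, 76 of Eng_BM-HSC, 87 of FL_HSC and 77 of ESC. Sequencing depth is unknown, because TPM does not preserve it. The kept cells had a median of 1609 detected genes in Eng_ES-HSC, 2585 in Eng_BM-HSC, 4233 in FL_HSC and 5433 in ESC, and the share of cells in which members were detected follows the same order, as given below.

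The respiratory chain passes electrons from NADH, at complex I, and from succinate, at complex II, through complex III to oxygen at complex IV. The proton gradient that this builds drives ATP synthesis at complex V. The mitochondrial genome is transcribed into long polycistronic RNAs that are cut into mRNAs for a few core subunits of complexes I, III, IV and V, while complex II is made wholly from nuclear genes. HSC are known for resting largely on glycolysis when quiescent, and pluripotent stem cells for a high glycolytic rate, so both are studied for how they build and use the chain.

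Some members overlap in sequence, which bears on how finely their values can be read. The end of mt-Atp8 and the start of mt-Atp6 lie on the same bases of the mitochondrial plus strand, chrM:7917-7979 in GRCm38, as do the end of mt-Nd4l and the start of mt-Nd4, chrM:10157-10183. Capitals mark the 43 and 7 bases that belong to both genes.
mt-Atp8 end and mt-Atp6 start: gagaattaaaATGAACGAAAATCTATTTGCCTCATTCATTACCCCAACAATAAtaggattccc
mt-Nd4l end and mt-Nd4 start: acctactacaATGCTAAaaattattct
Each pair is known to be read from a single mRNA with overlapping frames, so its members have one transcript and separate rows in the table.

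Several mitochondrial mRNAs also have copies in the nuclear genome. Of the 31-base windows of each mRNA, the share that also occurs in an annotated transcript of another gene (GENCODE M21) was 100% for mt-Co2, 99.9% for mt-Co3, 99.5% for mt-Atp6, 98.9% for mt-Nd4l and 98.1% for mt-Nd3. It was 63.9% for mt-Co1 and 62.8% for mt-Nd4, 16.8% for mt-Nd5, 13.5% for mt-Nd2, 7.47% for mt-Atp8, 7.36% for mt-Nd6, 6.55% for mt-Cytb and 0% for mt-Nd1. The closest matching transcripts of the first 5 are unprocessed pseudogenes on chromosome 1, and none of these has a row in the table. Any TPM assigned to them would thus be missing from the table and from its totals. How reads were divided among such copies is not given in the sources used here, so values of these 5 mRNAs, and in part of mt-Co1 and mt-Nd4, are uncertain, and values are also given over the other 8 mRNAs, and over the 6 with less than 50% of their windows shared. Among 91 nuclear members with a transcript, 0 had over 90% of their windows shared and 3 had over 50%: Uqcrb (54.3%), Atp5h (59.4%) and Atp5l (69.6%), whose values are uncertain for the same reason.

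A set of fetal liver cells stood apart from the rest. The rows of the table summed to under 700000 TPM in 31 of 87 FL_HSC cells (35.6%, exact 95% interval 25.6% to 46.6%), as it did in 1 of 21 Eng_ES-HSC (4.76%), 5 of 76 Eng_BM-HSC (6.58%) and 6 of 77 ESC ones (7.79%). In 12 of these 31 FL_HSC cells mt-Co3 was listed at 0.0155 to 0.853 TPM, while mt-Co1 was at 16300 to 35750 TPM and mt-Cytb at 18020 to 52430 TPM in the same 12 cells. In the other groups the lowest mt-Co3 value was 59.1 TPM in Eng_ES-HSC, 567 in Eng_BM-HSC and 1748 in ESC. The nuclear copy closest to mt-Co3 has no row in the table, and its part in these values and totals was not tested. Of the FL_HSC cells with 1000 to 3000 genes, 14 of 18 were under that total, as were 13 of 53 with 3000 to 5000 genes and 4 of 16 with more. The main results that rest on FL_HSC are therefore also given without the cells under that total, left out of all groups alike. This alternative was chosen after the values had been seen.

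The labels were checked against markers. All 10 ESC markers were detected in ESC, against 1 in Eng_ES-HSC, 1 in Eng_BM-HSC and 4 in FL_HSC. All 12 HSC markers were detected in Eng_BM-HSC and in FL_HSC, but in Eng_ES-HSC 8 of 12 were, with Procr, Meis1, Mecom and Erg under 1 TPM in every kept cell. In Eng_ES-HSC all 10 granulocyte markers were detected, with a summed level of 0 to 536100 TPM per cell, while 6 were detected in Eng_BM-HSC, 2 in FL_HSC and 5 in ESC. The monocyte and macrophage markers summed to 0 to 20740 TPM in Eng_ES-HSC, to at most 4801 in Eng_BM-HSC, 1411 in FL_HSC and 872 in ESC. For T and NK cells 7 of 8 markers were detected in Eng_ES-HSC, against 3, 4 and 5 in Eng_BM-HSC, FL_HSC and ESC. For B cells the counts were 1, 2, 4 and 3 of 6 in Eng_ES-HSC, Eng_BM-HSC, FL_HSC and ESC, and for erythroid cells 6, 4, 7 and 5 of 9, while 6, 6, 6 and 5 of 6 pan-leukocyte markers were detected. Eng_ES-HSC is used below as the label of that group and not as a cell type, and the part of these other cells in its values was not tested. Over its 21 cells, which share a library, the summed monocyte and macrophage markers had a Spearman correlation of -0.679 with the mitochondrial share of TPM and of -0.574 with the nuclear subunits' share of nuclear TPM, the shares described next. For the granulocyte markers these were -0.373 and -0.0565, and for the HSC markers -0.0941 and -0.357. The ESC markers, of which 1 was detected in this group, gave 0.234 and 0.602. For the B, T and NK, erythroid and pan-leukocyte markers the values lay between -0.251 and 0.21. As a list with 1 detected marker gave the largest value with the nuclear share, no cell type is read from these correlations.

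Mitochondrial mRNAs took a similar median share of the transcripts in Eng_ES-HSC and in ESC and smaller ones in the other HSC groups. Their share of TPM had a median of 20% in Eng_ES-HSC, 13.4% in Eng_BM-HSC, 9.31% in FL_HSC and 19.8% in ESC. The lowest and highest cells were at 3.11% and 77.3% in Eng_ES-HSC, 0.382% and 95.3% in Eng_BM-HSC, 4.55% and 99.1% in FL_HSC, and 3.37% and 94.8% in ESC. The groups overlapped almost over their whole ranges, and the quartiles show how differently they were spread. The quartiles were 14.7% and 34.9% in Eng_ES-HSC, 11.3% and 17.4% in Eng_BM-HSC, 7.42% and 19% in FL_HSC, and 10.4% and 59.5% in ESC. Without the cells under the total of 700000 TPM the FL_HSC median was 7.67% and its upper quartile 9.01%. Over the 8 mRNAs with less than 90% of their windows shared the medians were 8.97% in Eng_ES-HSC, 7.24% in Eng_BM-HSC, 5.51% in FL_HSC and 11.8% in ESC, so that ESC then lay above Eng_ES-HSC. Over the 6 with less than 50% shared, which leaves out mt-Co1 and mt-Nd4 too, they were 7.29%, 5.18%, 3.45% and 7.59% in the same order. This smaller set was added after the values had been seen.

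Cells in which mitochondrial mRNAs made up most of the transcripts were found in every group. Over 50% of TPM was mitochondrial in 2 of 21 Eng_ES-HSC cells (9.52%, exact 95% interval 1.18% to 30.4%), 10 of 76 Eng_BM-HSC (13.2%, 6.49% to 22.9%), 14 of 87 FL_HSC (16.1%, 9.09% to 25.5%) and 24 of 77 ESC cells (31.2%, 21.1% to 42.7%). Intervals here and below cover the counting of cells only. Of the 14 such FL_HSC cells, 1 was left once the cells under 700000 TPM had been removed, against 2, 8 and 23 cells in Eng_ES-HSC, Eng_BM-HSC and ESC. Such cells were frequent where few genes were detected: between 1000 and 3000 genes they were 2 of 17 Eng_ES-HSC, 10 of 65 Eng_BM-HSC, 10 of 18 FL_HSC and 6 of 6 ESC cells. From 3000 to 5000 genes they were 0 of 4, 0 of 11, 4 of 53 and 13 of 22 cells in the same groups. Across cells, the Spearman correlation of the mitochondrial share with the number of genes was -0.0961 in Eng_ES-HSC (n = 21), -0.0995 in Eng_BM-HSC (n = 76), -0.518 in FL_HSC (n = 87) and -0.803 in ESC (n = 77). The cells of a group share a library, and both measures come from the same cell. Eng_BM-HSC cells also lay at the other end, with 7 of 76 under 5%, against 1 of 21 in Eng_ES-HSC, 2 of 87 in FL_HSC and 1 of 77 in ESC.

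**Figure D1:**
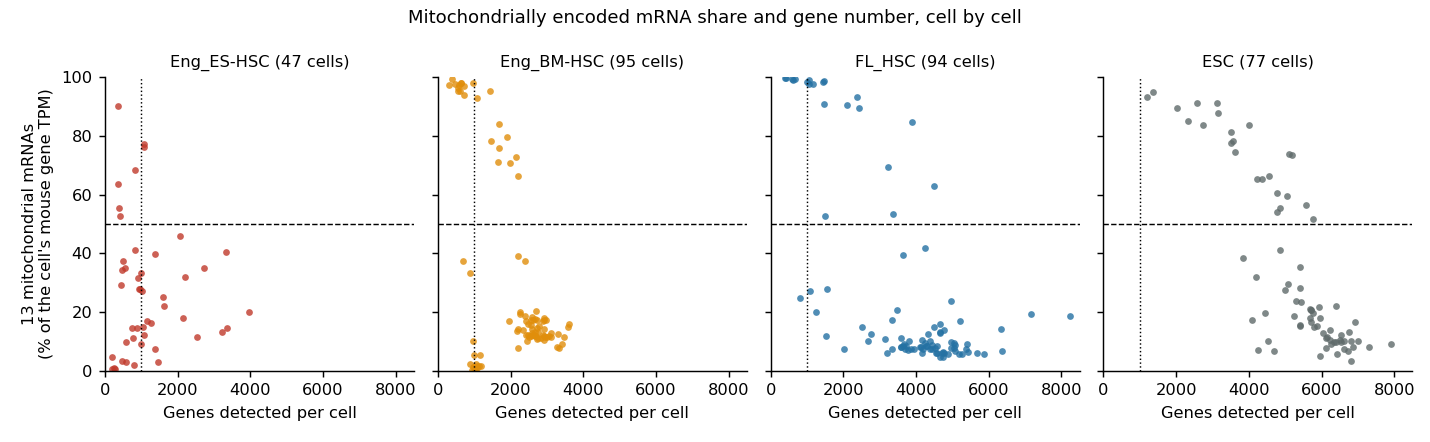
Percent of TPM from the 13 mitochondrially encoded mRNAs (vertical axis) against detected genes (horizontal axis) for all 313 cells, 1 panel a group; each point is a cell, the dotted line marks 1000 genes and the dashed line 50%. ESC and FL_HSC cells with few genes lie near the top, while Eng_ES-HSC cells of similar gene number have a median near that of their whole group.

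The make-up of the mitochondrial mRNA pool differed between groups in some of its mRNAs. A pair of mRNAs with few shared windows shows this: mt-Nd1, a core membrane subunit of complex I (chrM:2751-3707), and mt-Cytb, the cytochrome b of complex III (chrM:14145-15288). For mt-Nd1 the lowest, median and highest cells were at 42, 14690 and 82350 TPM in Eng_ES-HSC, 193, 6653 and 48490 in Eng_BM-HSC, 1245, 6853 and 76110 in FL_HSC, and 2349, 22840 and 206300 in ESC. For mt-Cytb they were 17.6, 12520 and 79380 TPM in Eng_ES-HSC, 670, 12980 and 126700 in Eng_BM-HSC, 3948, 10470 and 213300 in FL_HSC, and 1091, 20200 and 112900 in ESC. The TPM ranges of both genes overlap between all groups, but their ratio within a cell separates the groups more. The log2 ratio of mt-Nd1 to mt-Cytb had medians of 0.24 in Eng_ES-HSC (quartiles -0.08 and 0.85), -1.13 in Eng_BM-HSC (-1.86 and -0.67), -0.93 in FL_HSC (-1.14 and -0.47) and 0.42 in ESC (0.17 and 0.66). The middle cells of Eng_ES-HSC and ESC thus lay above those of Eng_BM-HSC and FL_HSC without overlap of the quartiles, although single cells crossed. In cells with 1000 to 3000 genes the medians were 0.32, -1.13, -1.10 and 0.66, in cells with at most 50% mitochondrial TPM 0.24, -1.11, -0.88 and 0.40, and without the cells under 700000 TPM 0.22, -1.12, -0.66 and 0.43, each in the order Eng_ES-HSC, Eng_BM-HSC, FL_HSC and ESC. This pair of genes, and those that follow, were chosen after their values had been seen.

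Within the 8 mRNAs with less than 90% of their windows shared, mt-Nd1 made up a median of 23% in Eng_ES-HSC (quartiles 10.5% and 27.7%), 11.3% in Eng_BM-HSC (6.52% and 13.6%), 13.1% in FL_HSC (11% and 16.1%) and 27.4% in ESC (24.5% and 30.2%). Within the 6 with less than 50% shared its medians were 28.5% in Eng_ES-HSC, 15.6% in Eng_BM-HSC, 20.6% in FL_HSC and 40% in ESC. The ATP synthase subunit mt-Atp8 was ordered otherwise, with 24.3% in Eng_ES-HSC (19% and 32.2%), 27.5% in Eng_BM-HSC (23.3% and 32.7%), 16.1% in FL_HSC (13.2% and 25%) and 12.4% in ESC (11% and 14.3%). The catalytic complex IV subunit mt-Co1 had the lowest median in Eng_ES-HSC, with 13.1% against 23.6% in Eng_BM-HSC, 27.9% in FL_HSC and 23.6% in ESC. The complex I subunit mt-Nd5 was likewise lowest there, with 0.911% against 2.93%, 2.88% and 2.82%. For mt-Nd5 the log2 ratio to its neighbour mt-Nd4 had medians of -1.98 in Eng_ES-HSC, -0.73 in Eng_BM-HSC, -0.88 in FL_HSC and -1.31 in ESC. In cells with 1000 to 3000 genes, 6 of them ESC, these were -2.44, -0.85, -0.69 and -2.32, so that this ratio was then close in Eng_ES-HSC and ESC. The ratio rests on mt-Nd4, whose values are in part uncertain. The mt-Nd5 share of the 8 mRNAs in the same cells still had its lowest median in Eng_ES-HSC, with 0.324% against 2.91%, 2.24% and 1.58%.

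Values of the mRNAs with nuclear copies are uncertain, as stated above. The mt-Co3 mRNA, for a core subunit of complex IV (chrM:8607-9390), was at 59.1, 23630 and 77930 TPM in the lowest, median and highest Eng_ES-HSC cells, at 567, 13270 and 91480 in Eng_BM-HSC, at 0.0155, 4350 and 111100 in FL_HSC and at 1748, 15560 and 88460 in ESC. Values under 1 TPM were found in FL_HSC alone. Its difference of mean log2(TPM + 1) was 3.39 in Eng_ES-HSC minus FL_HSC and -3.28 in FL_HSC minus ESC, and without the cells under 700000 TPM it was 2.34 and -1.81. The log2 ratio of mt-Co3 to mt-Co1, both core subunits of complex IV, had medians of 1.41 in Eng_ES-HSC, 0.03 in Eng_BM-HSC, -1.38 in FL_HSC and -0.52 in ESC, and 1.49, -0.00, -1.33 and -0.52 without those cells. For mt-Co2 to mt-Co1 the medians were 1.04, -0.22, -1.08 and -0.41, and 1.05, -0.22, -0.84 and -0.41 without them.

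The small complex I subunit mt-Nd4l was the mitochondrial mRNA missed most often in the engrafted groups. In FL_HSC it was missed in 11 of 87 cells and mt-Co3 in 12. The mt-Nd4l mRNA was detected in 76.2% of Eng_ES-HSC, 92.1% of Eng_BM-HSC, 87.4% of FL_HSC and 100% of ESC cells, with medians of 627, 893, 192 and 2321 TPM and highest values of 7774, 14700, 21070 and 13190 TPM. Its log2 ratio to mt-Nd4, with which it shares an mRNA, had medians of -3.26 in Eng_ES-HSC, -1.55 in Eng_BM-HSC, -3.83 in FL_HSC and -1.42 in ESC. For the other pair on a shared mRNA, mt-Atp8 to mt-Atp6, the medians lay closer, at -0.94, -0.70, -1.17 and -0.97. The largest mean log2 difference of any member in FL_HSC minus ESC was that of mt-Nd4l, at -4.56, and it was -4.37 without the cells under 700000 TPM. With 98.9% of its windows shared, mt-Nd4l is uncertain in value, and its ratio to mt-Nd4 differed between these groups as well. Its difference is therefore not read as one of their shared mRNA. All 13 mRNAs were detected together in 14 of 21 Eng_ES-HSC, 65 of 76 Eng_BM-HSC, 63 of 87 FL_HSC and 77 of 77 ESC cells.

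**Figure D2:**
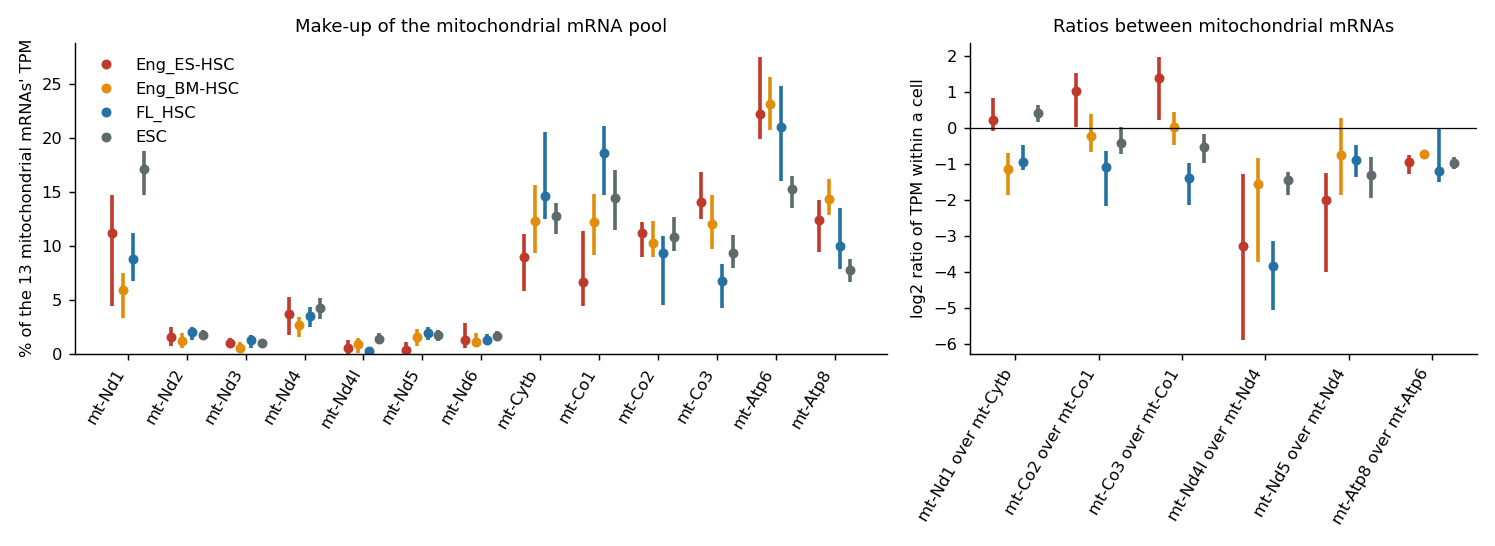
Percent of the summed TPM of the 13 mitochondrial mRNAs taken by each of them, by group, in cells with 1000 or more genes; points are medians over cells and bars run between the quartiles. The mt-Nd1 medians are 11.2% in Eng_ES-HSC and 17.2% in ESC against 5.94% in Eng_BM-HSC and 8.83% in FL_HSC, and mt-Co3 is highest in Eng_ES-HSC with 14.1%.

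Nuclear encoded subunits of the chain took a similar share of nuclear transcripts in Eng_ES-HSC and ESC, and a lower one in Eng_BM-HSC and FL_HSC. As a percentage of the TPM that is not mitochondrial, the 82 subunits summed to a median of 4.34% in Eng_ES-HSC (quartiles 3.18% and 5.58%), 2.84% in Eng_BM-HSC (1.91% and 3.48%), 3.03% in FL_HSC (2.36% and 3.70%) and 4.37% in ESC (3.79% and 5.27%). The lowest and highest cells were at 0.117% and 10% in Eng_ES-HSC, 0.112% and 38.1% in Eng_BM-HSC, 0.174% and 16.2% in FL_HSC, and 1.09% and 10.1% in ESC, so all groups overlapped. Without the cells under 700000 TPM the medians were 4.58%, 2.87%, 3.42% and 4.37% in the same order.

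The complexes did not follow one order. Complex I subunits had medians of 1.58% of nuclear TPM in Eng_ES-HSC, 0.896% in Eng_BM-HSC, 1.02% in FL_HSC and 1.11% in ESC. Complex V, the ATP synthase, had 1.02%, 0.552%, 0.857% and 1.10%, and complex IV, cytochrome c oxidase, 1.10%, 0.626%, 0.639% and 1.39% in the same groups. For complex III the medians were 0.372% in Eng_ES-HSC, 0.377% in Eng_BM-HSC, 0.374% in FL_HSC and 0.630% in ESC, and without the cells under 700000 TPM 0.480%, 0.419%, 0.514% and 0.630%. Complex II, succinate dehydrogenase, stood furthest apart, with 0.00159% in Eng_ES-HSC (quartiles 0% and 0.00773%), 0.0307% in Eng_BM-HSC (0.00123% and 0.166%), 0.135% in FL_HSC (0.0843% and 0.183%) and 0.0950% in ESC (0.0201% and 0.166%). The upper quartile of Eng_ES-HSC lay below the lower quartiles of FL_HSC and ESC. The FL_HSC medians without the cells under 700000 TPM were 1.08% for complex I, 0.142% for complex II, 0.716% for complex IV and 0.949% for complex V.

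**Figure D3:**
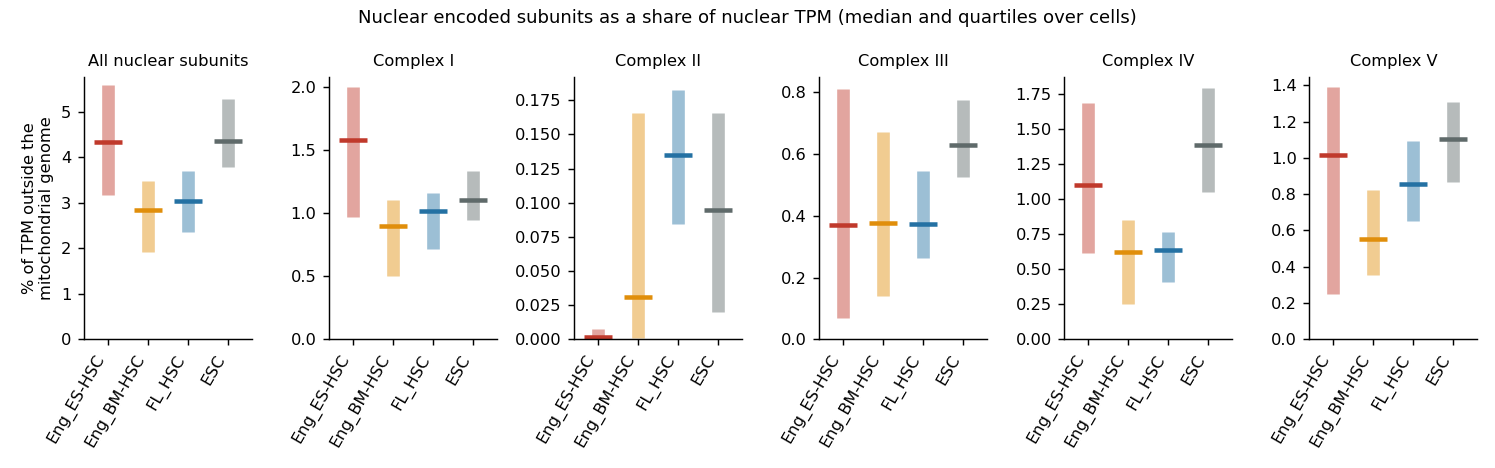
Summed TPM of the nuclear encoded subunits of each complex as a percent of the TPM that is not mitochondrial, per cell and group, with a bar at the median and the quartile range shaded; each panel has its own scale. In complex II the Eng_ES-HSC median is lowest, 0.00159% against 0.135% in FL_HSC and 0.0950% in ESC.

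On the log2 scale of summed TPM most of these differences were within the spread between cells. The 13 mitochondrial mRNAs averaged 17.3 ± 1.06 in Eng_ES-HSC, 16.7 ± 1.48 in Eng_BM-HSC, 16.7 ± 1.13 in FL_HSC and 17.4 ± 1.29 in ESC, and the nuclear subunits 14.2 ± 1.63, 13.5 ± 1.96, 13.6 ± 2.01 and 14.1 ± 1.32 (mean ± SD over the 21, 76, 87 and 77 cells). The complex II sum averaged 3.24 ± 3.32 in Eng_ES-HSC, against 6.55 ± 3.83 in Eng_BM-HSC, 8.76 ± 2.40 in FL_HSC and 7.86 ± 2.71 in ESC. Its difference was -5.53 in Eng_ES-HSC minus FL_HSC and -4.62 in Eng_ES-HSC minus ESC, where the pooled SD over cells was 2.90 and 3.03. Against ESC the difference was -0.65 in cells with 1000 to 3000 genes and 0.35 in cells paired by gene number. All ESC cells in these sets, 6 and 10, had over 50% mitochondrial TPM, which lowers nuclear TPM. The paired ones had a median mitochondrial share of 86.4%, against 17.5% in Eng_ES-HSC. On this scale, these values therefore cannot show whether the complex II share of nuclear TPM differed at similar gene number. The mitochondrial mRNAs of complex I differed by -1.78 in Eng_BM-HSC minus ESC (pooled SD 1.37) and by -1.48 in FL_HSC minus ESC (1.15). The log2 ratio of mitochondrial to nuclear sums was 3.07 ± 2.06 in Eng_ES-HSC, 3.23 ± 2.77 in Eng_BM-HSC, 3.01 ± 3.06 in FL_HSC and 3.34 ± 2.42 in ESC, so its group means differed by far less than the spread. Without the cells under 700000 TPM that ratio differed by 1.29 in Eng_ES-HSC minus FL_HSC and by -1.87 in FL_HSC minus ESC, still under the pooled SD of 1.43 and 1.97.

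Gene by gene, a member was called higher or lower where its mean log2(TPM + 1) differed by at least 1, and 101 of the 105 members, 88 of the 92 nuclear ones, passed a mean TPM of 1 in some group. With 1 sample a group such a call is a size and not a test. In Eng_ES-HSC minus Eng_BM-HSC, 7 nuclear members were higher and 23 lower, where 2.22% and 8.55% of all 13239 genes were. Against FL_HSC, 0 were higher and 69 lower in Eng_ES-HSC (background 2.26% and 35%), and 0 were higher and 71 lower in Eng_BM-HSC (1.84% and 29.1%). Relative to ESC, 0 were higher and 81 lower in Eng_ES-HSC (2.23% and 40.9%), 0 higher and 80 lower in Eng_BM-HSC (3.22% and 35.6%), and 7 higher and 27 lower in FL_HSC (10.7% and 17.7%). The 6 comparisons share their groups and are not independent of each other. Of the 13 mitochondrial mRNAs, 0 were higher and 2 lower in Eng_ES-HSC minus Eng_BM-HSC, 3 and 3 in Eng_ES-HSC minus FL_HSC, 4 and 1 in Eng_BM-HSC minus FL_HSC, and 0 and 9, 0 and 8, and 0 and 9 in Eng_ES-HSC, Eng_BM-HSC and FL_HSC minus ESC.

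The share of cells in which members were detected ran in the order of the number of detected genes, while the gene counts turned with the cells used. The part of gene number in these counts was not tested. The median share of cells in which a nuclear member was detected was 42.9% in Eng_ES-HSC, 50.7% in Eng_BM-HSC, 75.9% in FL_HSC and 86.4% in ESC, and the median cell had 26, 43, 66 and 72 of the 82 subunits. For FL_HSC minus ESC, leaving out the cells under 700000 TPM gave 32 higher and 3 lower nuclear members of 87 tested (background 16% and 14.3%), in place of 7 and 27. The higher ones included 13 of 36 complex I subunits, 3 of 4 of complex II, 4 of 8 of complex III, 2 of 14 of complex IV and 9 of 15 of complex V. Of the cells left, 1 of 56 in FL_HSC and 23 of 71 in ESC had over 50% mitochondrial TPM, which lowers nuclear TPM. As a share of nuclear TPM, the subunits had medians of 3.42% in FL_HSC and 4.37% in ESC in these cells, the other direction. In the other comparisons that filter gave 8 higher and 22 lower in Eng_ES-HSC minus Eng_BM-HSC (2.4% and 9.4%), 0 and 82 in Eng_ES-HSC minus FL_HSC (1.92% and 40.3%), 0 and 82 in Eng_BM-HSC minus FL_HSC (1.53% and 34.9%), 0 and 80 in Eng_ES-HSC minus ESC (2.36% and 41.5%) and 0 and 73 in Eng_BM-HSC minus ESC (3.52% and 35.6%).

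When cells were paired by gene number, within 10%, most counts changed direction. Of 80 nuclear members tested in Eng_ES-HSC minus Eng_BM-HSC, 36 were higher and 5 lower over 20 pairs, where 8.21% and 7.76% of all genes were. In Eng_ES-HSC minus FL_HSC 41 of 82 were higher and 13 lower over 19 pairs (11.3% and 14.1%), and in Eng_BM-HSC minus FL_HSC 12 of 85 were higher and 15 lower over 29 pairs (7.04% and 11.7%). Relative to ESC, 52 of 82 were higher and 3 lower in Eng_ES-HSC over 10 pairs (24.1% and 8.7%), 42 of 84 higher and 5 lower in Eng_BM-HSC over 13 pairs (22.3% and 9.02%), and 45 of 88 higher and 2 lower in FL_HSC over 44 pairs (27.8% and 9.49%). All 13 mitochondrial mRNAs were lower than in ESC in each of those last comparisons. The paired cells did not match in mitochondrial share: its median was 17.5% in Eng_ES-HSC and 86.4% in their ESC partners, 12.5% in Eng_BM-HSC and 85% in theirs, 8.19% in FL_HSC and 54.8% in theirs, and 22.2% in Eng_ES-HSC and 53.5% in their FL_HSC partners. Since TPM is a share of a fixed total, nuclear values are lower in a cell that is mostly mitochondrial, and the quantities cannot be told apart on this scale. As a percentage of nuclear TPM, which leaves the mitochondrial mRNAs out, the subunits had medians of 4.49% in Eng_ES-HSC and 4.22% in their ESC partners, 3.59% in Eng_BM-HSC and 3.43% in theirs, and 3.10% in FL_HSC and 4.63% in theirs. On that scale the engrafted groups thus lay near ESC and FL_HSC below it, where the gene counts gave more members higher than lower. The same medians were 4.58% in Eng_ES-HSC and 1.6% in their Eng_BM-HSC partners, 4.83% in Eng_ES-HSC and 2.17% in their FL_HSC partners, and 2.42% in Eng_BM-HSC and 2.69% in their FL_HSC partners. The 20 Eng_BM-HSC cells paired with Eng_ES-HSC had a median of 14.5 subunits detected, against 27 in Eng_ES-HSC. Of these 20, 7 had over 50% mitochondrial TPM, against 2 in Eng_ES-HSC, and 5 were under 700000 TPM in total, against 1. The median mitochondrial share was 11.3% in them and 21.1% in Eng_ES-HSC.

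The paired fetal liver cells were largely those that stood apart: 16 of the 19 FL_HSC cells paired with Eng_ES-HSC were under 700000 TPM in total, 16 of the 29 paired with Eng_BM-HSC, and 12 of the 44 paired with ESC. Pairing without such cells, added after the values had been seen, gave 38 higher and 4 lower of 81 nuclear members in Eng_ES-HSC minus Eng_BM-HSC (19 pairs, background 9.06% and 7.82%). In Eng_ES-HSC minus FL_HSC it gave 32 higher and 19 lower of 84 (8 pairs, 17% and 27.8%), in Eng_BM-HSC minus FL_HSC 13 and 35 of 85 (12 pairs, 13.1% and 20.6%), and in FL_HSC minus ESC 54 and 2 of 87 (41 pairs, 25.7% and 10.3%). The pairs of Eng_ES-HSC and of Eng_BM-HSC with ESC held no such cell, so their counts and backgrounds were as above. The median mitochondrial share was then 25.9% in Eng_ES-HSC and 8.89% in their FL_HSC partners, and 7.9% in FL_HSC and 51.6% in their ESC partners. Nuclear subunits took a median of 5.34% of nuclear TPM in Eng_ES-HSC against 2.79% in FL_HSC, and 3.47% in FL_HSC against 4.76% in ESC.

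Pairing among cells with at most 50% mitochondrial TPM, also added after the values had been seen, narrowed the gap in mitochondrial share. It gave 25 higher and 11 lower of 82 nuclear members in Eng_ES-HSC minus Eng_BM-HSC (14 pairs, background 10.1% and 14.5%), and 29 higher and 26 lower of 83 in Eng_ES-HSC minus FL_HSC (11 pairs, 11.8% and 28.1%). In Eng_BM-HSC minus FL_HSC it gave 14 and 26 of 85 (17 pairs, 9.24% and 19.4%). In FL_HSC minus ESC it gave 27 and 9 of 88 (22 pairs, 27.7% and 14.1%), a higher count whose share is near the background. The other comparisons had under 5 pairs. As a percentage of nuclear TPM the subunits then had medians of 5.04% in Eng_ES-HSC and 3.28% in Eng_BM-HSC, 4.83% in Eng_ES-HSC and 2.64% in FL_HSC, 2.81% in Eng_BM-HSC and 2.98% in FL_HSC, and 3.36% in FL_HSC and 4.66% in ESC. The mitochondrial share in the same cells had medians of 17.5% in Eng_ES-HSC and 8.02% in Eng_BM-HSC, and 7.52% in FL_HSC and 19.8% in ESC.

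Fixed ranges of gene number gave counts that did not always follow the pairs. The range of 1000 to 3000 genes left the engrafted groups apart in gene number. In it, 12 of 17 Eng_ES-HSC cells had under 2000 genes, against 18 of 65 Eng_BM-HSC cells. Between 1000 and 3000 genes, 17 cells of Eng_ES-HSC, 65 of Eng_BM-HSC, 18 of FL_HSC and 6 of ESC gave 5 higher and 29 lower of 85 nuclear members in Eng_ES-HSC minus Eng_BM-HSC (background 2.33% and 12.5%), the opposite of the paired cells. They gave 34 and 16 in Eng_ES-HSC minus FL_HSC (7.69% and 11.8%) and 45 and 7 in Eng_BM-HSC minus FL_HSC (12.1% and 5.34%). Relative to ESC they gave 28 and 9 in Eng_ES-HSC (8.96% and 7.08%), 44 and 2 in Eng_BM-HSC (16.5% and 4.58%), and 25 and 20 in FL_HSC (13.6% and 7.22%). With at most 50% mitochondrial TPM the same range gave 3 and 33 of 84 in Eng_ES-HSC minus Eng_BM-HSC (2.64% and 15.3%), 21 and 36 in Eng_ES-HSC minus FL_HSC (7.84% and 24.5%), and 31 and 17 in Eng_BM-HSC minus FL_HSC (11.4% and 16.7%). Without the cells under 700000 TPM, 4 FL_HSC cells were left there, too few to compare.

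Between 3000 and 5000 genes, Eng_BM-HSC minus FL_HSC gave 11 higher and 39 lower of 88 (background 6.63% and 24.4%), Eng_BM-HSC minus ESC 34 and 9 (16.1% and 16.1%), and FL_HSC minus ESC 52 and 3 (27.4% and 10.4%). With at most 50% mitochondrial TPM these were 8 and 46 (6.12% and 26.6%), 11 and 33 (14.2% and 23.3%), and 30 and 12 (25.5% and 15.2%). Without the cells under 700000 TPM they were 4 and 53 of 87 (5.73% and 27.1%), 41 and 7 (17% and 15.2%), and 65 and 2 (30.2% and 9.61%). Over all kept cells with at most 50% mitochondrial TPM, the counts stayed on the side of the full set: 7 and 28 of 88 in Eng_ES-HSC minus Eng_BM-HSC (2.33% and 10.1%), 0 and 75 in Eng_ES-HSC minus FL_HSC (2.29% and 38.9%), 0 and 77 in Eng_BM-HSC minus FL_HSC (1.7% and 33%), 0 and 84 in Eng_ES-HSC minus ESC (2.28% and 46.4%), 0 and 82 in Eng_BM-HSC minus ESC (3.21% and 41.8%), and 2 and 38 in FL_HSC minus ESC (10.5% and 22.7%).

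**Figure D4:**
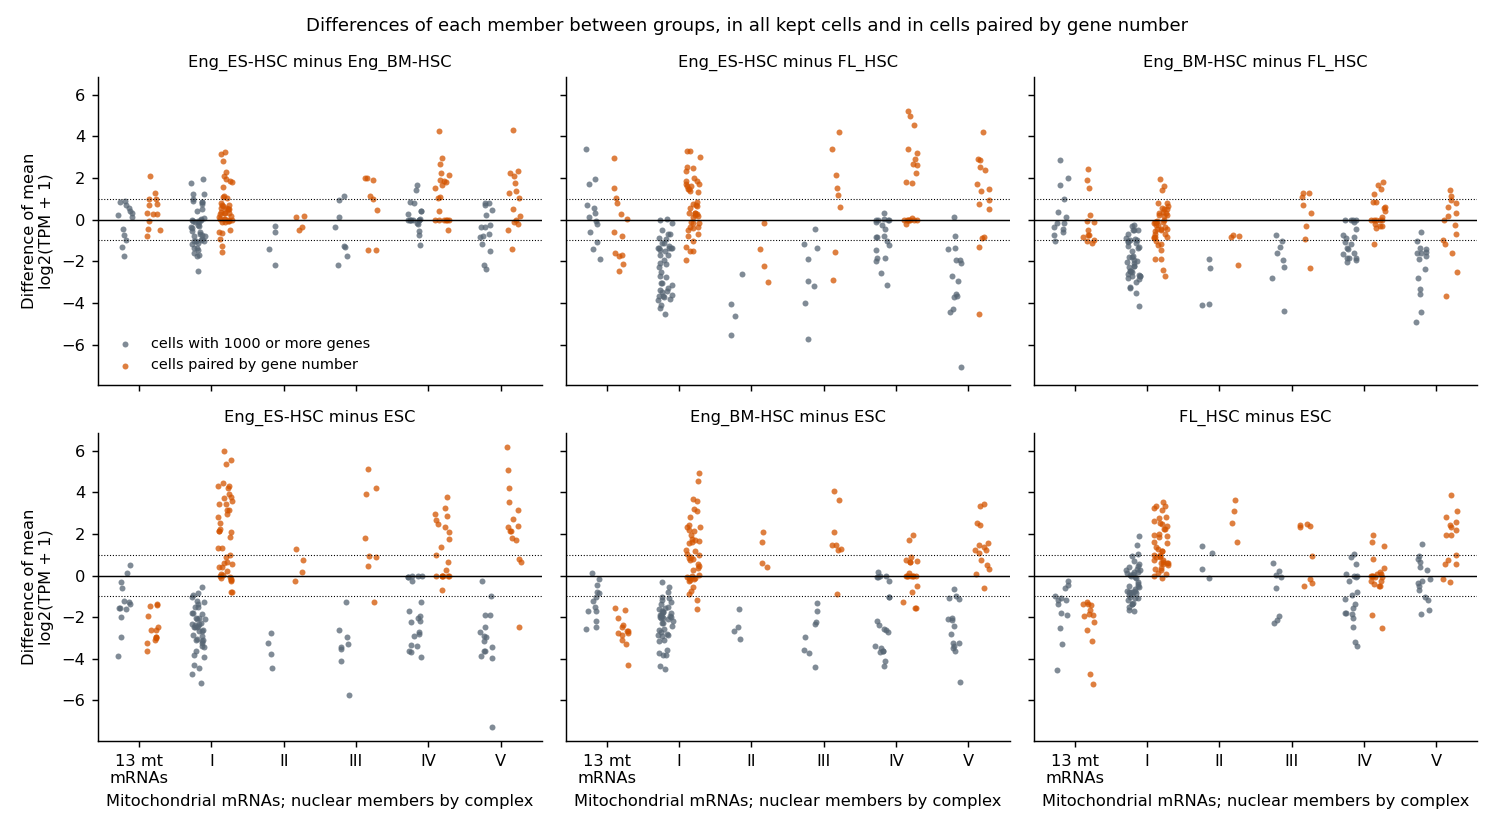
Differences of mean log2(TPM + 1) of the members, by complex, for the 6 comparisons; grey points are all kept cells, orange points cells paired by gene number, and dotted lines mark -1 and 1. In Eng_ES-HSC minus FL_HSC the grey points of 69 nuclear members lie at or under -1, while 41 of the orange ones lie at or over 1, and Atp5b stays low in both.

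The complexes differed in how their members behaved under matching. Complex IV subunits were on the higher side in Eng_ES-HSC: with paired cells 11 of 13 were higher and 0 lower than in Eng_BM-HSC, and 11 of 12 were higher and 0 lower than in FL_HSC, where 8.21% and 11.3% of all genes were higher. With at most 50% mitochondrial TPM these counts were 9 of 13 and 9 of 12 (background 10.1% and 11.8%), and without the cells under 700000 TPM 11 of 13 and 9 of 14 (9.06% and 17%), with 0 lower in each. In cells with 1000 to 3000 genes 2 of 13 were higher and 0 lower than in Eng_BM-HSC (2.33% higher), and 11 of 13 were higher and 0 lower than in FL_HSC (7.69%). In all kept cells 2 of 15 were higher and 0 lower than in Eng_BM-HSC (2.22%), but 0 higher and 7 lower than in FL_HSC (35% lower). Complex I and V gave 12 of 35 and 8 of 15 higher in paired Eng_ES-HSC minus Eng_BM-HSC cells, with 1 lower in each, and complex III 4 higher and 2 lower of 8. Complex II gave 0 higher of 4 in Eng_ES-HSC minus FL_HSC in each of these sets: 4 were lower in all kept cells, 3 in the paired cells, 3 in the paired cells with at most 50% mitochondrial TPM and 3 in the cells with 1000 to 3000 genes, but 2 in the paired cells without those under 700000 TPM. The summed complex II difference in that last set was -0.82, against -5.53 in all kept cells. Between FL_HSC and ESC, as FL_HSC minus ESC, the 7 nuclear core subunits of complex I, which carry its flavin and iron-sulphur centres, were all higher in paired cells, where 27.8% of all genes were. With at most 50% mitochondrial TPM 6 of 7 were (27.7%), and without the cells under 700000 TPM also 6 of 7 (25.7%).

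Succinate dehydrogenase, complex II, feeds electrons from the citric acid cycle into the chain. Its flavoprotein Sdha was at 0, 0 and 29.2 TPM in the lowest, median and highest Eng_ES-HSC cells, 0, 0 and 1469 in Eng_BM-HSC, 0, 79.7 and 740 in FL_HSC, and 0, 7.81 and 657 in ESC. It was detected in 14.3%, 18.4%, 81.6% and 76.6% of those cells, so the engrafted groups both lay low. The iron-sulphur subunit Sdhb (chr4:140961203-140979193, plus strand) was at 0, 0 and 207 TPM in Eng_ES-HSC, 0, 10.6 and 2925 in Eng_BM-HSC, 0, 209 and 1346 in FL_HSC, and 0, 140 and 1030 in ESC. The membrane anchor Sdhd (chr9:50596357-50603812, minus strand) was at 0, 0 and 458 TPM in Eng_ES-HSC, 0, 0 and 3020 in Eng_BM-HSC, 0, 276 and 1796 in FL_HSC, and 0, 174 and 1200 in ESC. All ranges start at 0 and overlap, while the medians are at 0 in Eng_ES-HSC alone for Sdhb. In Eng_ES-HSC minus FL_HSC the log2 difference of Sdha was -4.64 in all kept cells, -3.02 in paired cells, and -4.65 in paired cells with at most 50% mitochondrial TPM. For Sdhd it was -5.53, -2.21 and -3.18, for Sdhb -4.06, -1.42 and -1.73, and for the other anchor, Sdhc, -2.62, -0.15 and -0.43. In paired cells without those under 700000 TPM Sdha gave -2.88, Sdhb -1.05, Sdhd -0.44 and Sdhc 0.06, so that the size for Sdhd and Sdhc rests on the cells used. In Eng_ES-HSC minus Eng_BM-HSC, Sdhb gave -2.18 in all kept cells but 0.12 in paired cells.

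Complex V held the member with the largest differences. Atp5b, the catalytic beta subunit of the ATP synthase (chr10:128083273-128090391, plus strand), was at 0, 0 and 114 TPM in the lowest, median and highest Eng_ES-HSC cells, 0, 3.64 and 6781 in Eng_BM-HSC, 0, 592 and 2347 in FL_HSC, and 3.26, 1161 and 3102 in ESC. It was detected in 28.6% of Eng_ES-HSC, 57.9% of Eng_BM-HSC, 96.6% of FL_HSC and 100% of ESC cells. The highest Eng_ES-HSC cell lay below the median FL_HSC and ESC cells. The log2 difference was -7.10 in Eng_ES-HSC minus FL_HSC, and it was -4.09 in cells with 1000 to 3000 genes, -4.56 in paired cells, -7.74 in paired cells with at most 50% mitochondrial TPM, -8.18 without the cells under 700000 TPM and -4.90 in paired cells without them. In Eng_BM-HSC minus FL_HSC the same settings gave -4.93, -2.34, -3.65, -4.70, -5.60 and -3.67. The range of Atp5b in Eng_ES-HSC is thus the narrowest of the groups. Its partner Atp5a1, the alpha subunit, was at 0, 45.3 and 2560 TPM in Eng_ES-HSC, 0, 9.10 and 3274 in Eng_BM-HSC, 0, 545 and 1678 in FL_HSC, and 0, 297 and 1601 in ESC, and differed by -3.65 in Eng_ES-HSC minus FL_HSC and by -4.44 in Eng_BM-HSC minus FL_HSC, against -0.88 and -2.50 in paired cells and -1.45 and -2.96 in paired cells without those under 700000 TPM. Relative to ESC, Atp5b gave -7.29 in Eng_ES-HSC and -5.11 in Eng_BM-HSC, against -2.48 and -0.59 in paired cells.

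Some small subunits of complex V had their highest mean TPM in Eng_ES-HSC. Atp5l, a small membrane subunit with many shared windows, averaged 1076 TPM in Eng_ES-HSC, 468 in Eng_BM-HSC, 418 in FL_HSC and 321.5 in ESC. Atp5e, the epsilon subunit of the stalk, averaged 417, 360.1, 340.4 and 211 TPM. On the log2 scale neither was called higher in Eng_ES-HSC minus FL_HSC: Atp5l gave 0.12 and Atp5e -1.39 in all kept cells, while they gave 4.18 and 0.92 in paired cells and 3.52 and 2.04 in paired cells without those under 700000 TPM. The c ring is encoded by a family of 3 genes whose mature proteins are the same. Atp5g1 averaged 268 TPM in Eng_ES-HSC, 304 in Eng_BM-HSC, 533 in FL_HSC and 957 in ESC. Atp5g2 averaged 158, 312, 446 and 227 TPM, and Atp5g3 averaged 2044, 434, 405 and 617 TPM, where 1 Eng_ES-HSC cell at 33010 TPM lifted the first value from 496. Atp5g1 was thus the leading c-ring gene by mean in ESC and FL_HSC, and Atp5g3 in the engrafted groups, with spreads over cells that overlap for each gene. In Eng_ES-HSC minus Eng_BM-HSC Atp5g2 gave -2.35 in all kept cells, 0.18 in paired cells and -1.16 in paired cells with at most 50% mitochondrial TPM. The peripheral stalk subunit Atp5f1 gave 1.53 in FL_HSC minus ESC in all kept cells and 3.86 in paired cells.

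In complex IV, Cox6a1, the widely expressed form of a nuclear subunit (chr5:115345642-115348981, minus strand), had the highest mean level over the 4 groups. It was at 0, 996 and 18490 TPM in the lowest, median and highest Eng_ES-HSC cells, 0, 493 and 4701 in Eng_BM-HSC, 0, 509 and 2084 in FL_HSC, and 4.86, 2089 and 6426 in ESC. Every ESC cell held it, and some cells of each HSC group were at 0. Its log2 difference in Eng_ES-HSC minus FL_HSC was 0.03 in all kept cells, 4.22 in cells with 1000 to 3000 genes, 5.21 in paired cells and 5.52 in paired cells with at most 50% mitochondrial TPM, but -1.35 without the cells under 700000 TPM and 4.95 in paired cells without them. In FL_HSC minus ESC it was -3.36, -5.70, -1.87 and -2.28 in those first settings and -1.65 in the last. The core-facing subunit Cox4i1 averaged 1248 TPM in Eng_ES-HSC, 453 in Eng_BM-HSC, 725 in FL_HSC and 891 in ESC, and Ndufa4, once placed in complex I and now in complex IV, averaged 1283, 712, 616 and 754 TPM.

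Cox7c and Cox7a2, small complex IV subunits, were among the 3 members with the largest positive difference in Eng_ES-HSC minus Eng_BM-HSC. Cox7c (chr13:86044816-86046904, minus strand) was at 0, 338 and 1828 TPM in the lowest, median and highest Eng_ES-HSC cells, 0, 99.3 and 3146 in Eng_BM-HSC, 0, 362 and 1252 in FL_HSC, and 0, 579 and 2141 in ESC. Cox7a2 was at 0, 122 and 6589 TPM in Eng_ES-HSC, 0, 16.3 and 991 in Eng_BM-HSC, 0, 155 and 596 in FL_HSC, and 0, 297 and 833 in ESC. The ranges of both overlap in all groups. The difference was 1.67 for Cox7c and 1.43 for Cox7a2 in all kept cells, 4.28 and 2.95 in paired cells, and 2.46 and 3.52 in paired cells with at most 50% mitochondrial TPM, while Cox7a2 gave -0.40 in even-numbered cells alone. The third member was the complex I accessory subunit Ndufv3, at 0, 3.28 and 2536 TPM in Eng_ES-HSC, 0, 0 and 1386 in Eng_BM-HSC, 0, 79 and 803 in FL_HSC, and 0, 99.6 and 1368 in ESC, with differences of 1.94, 3.26 and 1.80 in those settings.

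Of the 8 complex III subunits, 1 was higher and 4 were lower in Eng_ES-HSC minus Eng_BM-HSC and 0 higher and 7 lower in Eng_ES-HSC minus FL_HSC in all kept cells, against 4 and 2, and 5 and 2, in paired cells. The backgrounds are those given above for these cells. Uqcrc1, a core protein of the complex (chr9:108936633-108949623, plus strand), was at 0, 0 and 532 TPM in the lowest, median and highest Eng_ES-HSC cells, 0, 0 and 3115 in Eng_BM-HSC, 0, 326 and 1410 in FL_HSC, and 0, 269 and 3123 in ESC. Its difference in Eng_ES-HSC minus FL_HSC was -5.73, and it was -2.94 in cells with 1000 to 3000 genes, -2.88 in paired cells, -3.59 in paired cells with at most 50% mitochondrial TPM and -3.67 in paired cells without those under 700000 TPM. In Eng_BM-HSC minus FL_HSC it was -4.39, -1.44, -2.34, -3.08 and -0.88. The hinge protein Uqcrh was at 0, 17.5 and 2191 TPM in Eng_ES-HSC, 0, 439 and 3972 in Eng_BM-HSC, 0, 380 and 1579 in FL_HSC, and 0, 483 and 1435 in ESC. In Eng_ES-HSC minus Eng_BM-HSC it gave -2.20 in all kept cells, 0.48 in paired cells and -1.61 in paired cells with at most 50% mitochondrial TPM. The small subunit Uqcr11 averaged 726 TPM in Eng_ES-HSC, 699 in Eng_BM-HSC, 404.5 in FL_HSC and 870 in ESC, and Uqcrb, part of whose sequence is shared, averaged 419, 602, 779 and 602 TPM.

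In complex I the members with the largest positive differences in FL_HSC minus ESC were Ndufa10, an accessory subunit, and Ndufs8, an iron-sulphur core subunit. Ndufa10 was at 0, 0 and 17.5 TPM in Eng_ES-HSC, 0, 0 and 56.6 in Eng_BM-HSC and 0, 8.40 and 645 in FL_HSC, and reached 91.3 in ESC, where it was detected in 41.6% of cells against 56.3% of FL_HSC. Ndufs8 was at 0, 0 and 3633 TPM in Eng_ES-HSC, 0, 9.04 and 2543 in Eng_BM-HSC, 0, 215 and 17330 in FL_HSC, and 0, 92.9 and 790 in ESC, with the FL_HSC maximum from 1 cell. The FL_HSC minus ESC difference was 1.89 for Ndufa10 and 1.46 for Ndufs8, 3.25 and 3.32 in paired cells, and 3.77 and 3.18 in paired cells without those under 700000 TPM. The accessory subunit Ndufs6 was at 0, 0 and 532 TPM in Eng_ES-HSC, 0, 0 and 982 in Eng_BM-HSC, 0, 116 and 708 in FL_HSC, and 0, 346 and 1001 in ESC, and its difference of -5.16 in Eng_ES-HSC minus ESC became 0.58 in paired cells. Ndufb9, another accessory subunit, averaged 467, 348, 365 and 540 TPM in the 4 groups in the same order.

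Single cells set some group means. In Eng_BM-HSC cell 74, with 1081 detected genes, the complex I subunit Ndufa3 was listed at 359300 TPM, 37.8% of the cell, and the group mean was 5049 TPM with that cell and 326 without it. The next highest Eng_BM-HSC cell was at 1742 TPM. In Eng_ES-HSC, cell 27 lifted the means of the complex I subunits Ndufb6 to 1175 from 57.4 TPM and Ndufb3 to 1042 from 105 TPM, and cell 18 lifted Cox7a2l to 1016 from 193 TPM. Cell 9 lifted Cox4i1 there to 1248 from 778 TPM, and cell 22 Ndufa4 to 1283 from 751 TPM. Means of log2 values, used for all differences, are less moved by such cells.

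The promoters of Cox6a1 and of Sdhd are shown because their genes went apart in Eng_ES-HSC minus FL_HSC in paired cells, at 5.21 for Cox6a1 and -2.21 for Sdhd, and at 4.95 and -0.44 without the cells under 700000 TPM. The sequences are RefSeq's, build GRCm38.p6, 250 bases before to 50 after the start, on the gene's own strand: chr5:115348909-115349208 (minus) and chr9:50603800-50604099 (minus). Capitals mark matches on either strand to a core of the NRF1 motif (GCGCA, any base, then GCGC) and to CCGGAAG, a core of the GABPA motif, whose other strand reads CTTCCGG.
Cox6a1 promoter: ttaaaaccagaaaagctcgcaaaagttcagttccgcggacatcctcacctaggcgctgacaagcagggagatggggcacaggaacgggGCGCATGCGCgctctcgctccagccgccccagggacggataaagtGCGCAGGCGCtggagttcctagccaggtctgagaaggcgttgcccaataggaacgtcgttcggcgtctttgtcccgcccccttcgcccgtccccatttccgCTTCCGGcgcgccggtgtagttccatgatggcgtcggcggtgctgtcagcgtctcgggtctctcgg
Sdhd promoter: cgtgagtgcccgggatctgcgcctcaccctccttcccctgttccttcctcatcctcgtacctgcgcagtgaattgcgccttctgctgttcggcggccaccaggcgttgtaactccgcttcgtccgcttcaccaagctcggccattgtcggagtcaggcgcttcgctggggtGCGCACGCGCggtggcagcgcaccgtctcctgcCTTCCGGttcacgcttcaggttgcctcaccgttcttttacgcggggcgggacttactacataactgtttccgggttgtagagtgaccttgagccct
Both windows hold both motifs, with 2 NRF1 matches and 1 GABPA match at Cox6a1 and 1 of each at Sdhd. NRF1 and GABPA are transcription factors known to act on many nuclear genes of the chain. Of the 92 nuclear members, 73 had a promoter in the RefSeq table, and 19 of 73 (26%) held the NRF1 letters, against 1402 of 27025 promoters in all (5.19%). The GABPA letters were in 17 of 73 (23.3%) against 9.93% of all, AAGATGGCG, a core of the YY1 motif, in 7 of 73 (9.59%) against 1.64%, and TATAAA in 7 of 73 (9.59%) against 15.7%. A match describes these letters in this window and no more.

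Of the isoforms known from particular tissues, Cox7a1 reached the highest share of cells in a group. Cox7a1, known as the heart and muscle form of a complex IV subunit (chr7:30184144-30186078, plus strand), was detected in 0 of 21 Eng_ES-HSC cells, 0 of 76 Eng_BM-HSC cells, 6 of 87 FL_HSC cells (6.90%, exact 95% interval 2.57% to 14.4%) and 54 of 77 ESC cells (70.1%, 58.6% to 80%). With 3 cells as the limit, the counts of 0 allow shares of up to 14.3% in Eng_ES-HSC and 3.95% in Eng_BM-HSC, and the exact intervals reach 16.1% and 4.74%. Cox7a1 was detected in 8.93% of FL_HSC and 70.4% of ESC cells without those under 700000 TPM. Its levels in the lowest, median and highest cells were 0, 0 and 278 TPM in FL_HSC, and 0, 14.2 and 928 TPM in ESC. Among cells with 1000 to 3000 genes its mean log2 difference was -0.55 in Eng_ES-HSC minus ESC and in Eng_BM-HSC minus ESC, with 6 ESC cells. In FL_HSC minus ESC it was -3.18 in all kept cells, -2.54 in paired cells, -3.85 in paired cells with at most 50% mitochondrial TPM and -2.99 without the cells under 700000 TPM. In ESC Cox7a1 averaged 52.9 TPM beside 302 TPM of its widely expressed form Cox7a2. The promoters of both are shown since the forms differ in where they were found: Cox7a1 at chr7:30183921-30184220 (plus) and Cox7a2 at chr9:79759804-79760103 (minus), RefSeq, GRCm38.p6.
Cox7a1 promoter: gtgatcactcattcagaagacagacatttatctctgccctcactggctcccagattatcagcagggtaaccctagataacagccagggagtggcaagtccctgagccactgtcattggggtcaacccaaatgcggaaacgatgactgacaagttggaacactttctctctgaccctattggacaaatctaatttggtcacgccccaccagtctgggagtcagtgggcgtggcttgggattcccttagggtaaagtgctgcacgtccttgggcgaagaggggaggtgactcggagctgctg
Cox7a2 promoter: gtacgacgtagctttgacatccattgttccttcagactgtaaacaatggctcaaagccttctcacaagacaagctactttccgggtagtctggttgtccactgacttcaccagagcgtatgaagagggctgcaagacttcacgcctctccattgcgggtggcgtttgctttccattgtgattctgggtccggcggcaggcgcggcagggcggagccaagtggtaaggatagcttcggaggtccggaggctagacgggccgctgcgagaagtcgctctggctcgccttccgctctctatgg
Neither window holds any of the 4 sets of letters searched, so there are no capitals.

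Cox4i2, known as a form of Cox4 that takes part in the response to low oxygen (chr2:152754173-152765037, plus strand), was found mostly in fetal liver. It was detected in 0 of 21 Eng_ES-HSC, 2 of 76 Eng_BM-HSC (2.63%, 0.320% to 9.19%), 18 of 87 FL_HSC (20.7%, 12.8% to 30.7%) and 0 of 77 ESC cells, with highest values of 775 TPM in Eng_BM-HSC and 221 TPM in FL_HSC. The ESC count allows a share of up to 3.90% by the limit of 3 cells and 4.68% by the exact interval. Among FL_HSC cells with a total of at least 700000 TPM, 25% held Cox4i2. In cells paired by gene number its FL_HSC minus ESC difference was 1.61, and in cells with 1000 to 3000 genes it was 0.00. Cox6b2, known from testis, was detected in 9.52% of Eng_ES-HSC, 15.8% of Eng_BM-HSC, 39.1% of FL_HSC and 40.3% of ESC cells, and without the cells under 700000 TPM in 53.6% of FL_HSC and 39.4% of ESC cells. Cox7b2 was detected in 9.09% and Ndufa4l2 in 2.60% of ESC cells and in 0 cells of the HSC groups, and Cox8c in 2.30% of FL_HSC and 1.3% of ESC cells. Cox6a2 and Cox8b, forms known from muscle, were listed at 0 in every cell.

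**Figure D5:**
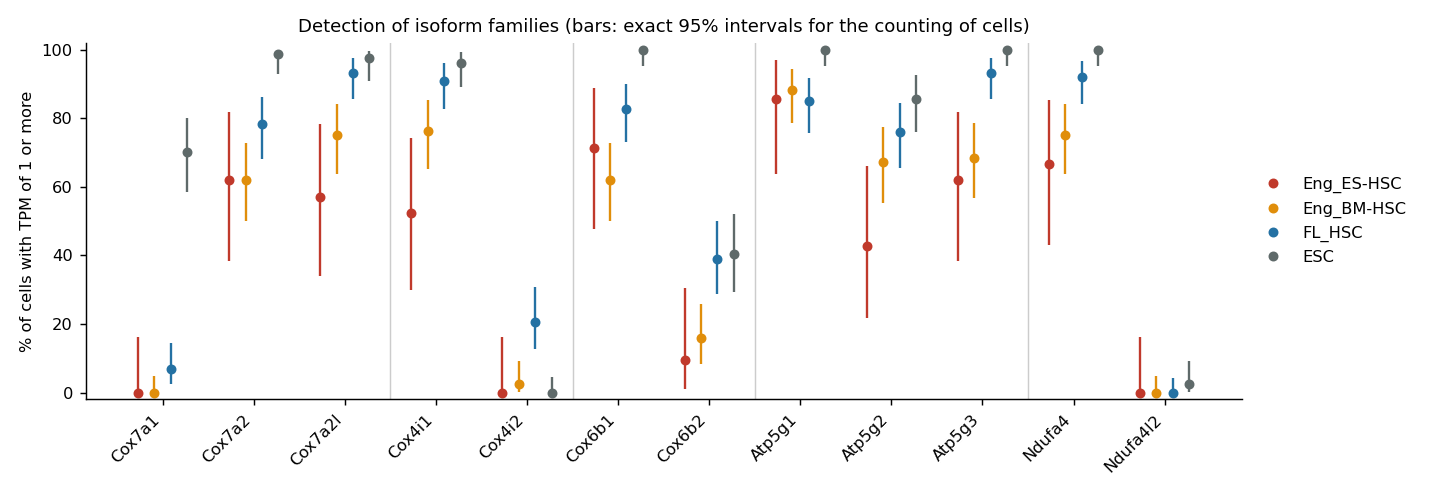
Percent of cells with a TPM of 1 or more for the tissue isoforms, by group, with exact 95% intervals that cover the counting of cells. Cox7a1 stands at 70.1% in ESC and Cox4i2 at 20.7% in FL_HSC.

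Transcript length ran with some differences. Over 78 nuclear subunits, the Spearman correlation of the difference with the length of the longest transcript was -0.434 in Eng_ES-HSC minus FL_HSC, -0.449 in Eng_BM-HSC minus FL_HSC and 0.36 in FL_HSC minus ESC, and -0.318, -0.343 and 0.221 over 77 subunits without the cells under 700000 TPM. Over all genes it was 0.0533, 0.091 and -0.0104 in these comparisons, and 0.0811, 0.124 and -0.069 without those cells. Genes are not independent replicates, and the part of length in these differences was not tested.

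Genes around the chain were read from lists that are not members. The lists were citric acid cycle, mitochondrial protein import, electron carriers, assembly of complex IV, assembly of complexes II, III and V, mitochondrial transcription and RNA handling, antioxidant and uncoupling proteins, and nuclear regulators. In Eng_ES-HSC minus FL_HSC, 0 citric acid cycle genes were higher and 15 of 16 lower, and in Eng_BM-HSC minus FL_HSC 0 and 14, beside the 35% and 29.1% of all genes that were lower. Mdh2, the mitochondrial malate dehydrogenase, differed by -7.35 and -4.98 there, and Suclg1, a subunit of succinyl-CoA ligase, by -4.49 in the first. For the import genes, which form the Tom and Tim channels, the counts were 0 and 14 of 16, and 0 and 12 of 16. In cells paired by gene number the citric acid cycle list gave 1 higher and 9 lower in Eng_ES-HSC minus FL_HSC and 0 and 8 in Eng_BM-HSC minus FL_HSC, while import gave 3 and 1, and 2 and 3. Pairing without the cells under 700000 TPM gave 2 and 6, and 1 and 7, for the cycle list and 5 and 5, and 3 and 7, for import, where 17% and 27.8%, and 13.1% and 20.6%, of all genes were higher and lower. Over all kept cells without them the cycle list gave 0 and 15, and 0 and 14, and import 0 and 15, and 0 and 16, beside 40.3% and 34.9% lower over all genes. The cycle list gave 3 and 3 in FL_HSC minus ESC in all kept cells and 13 and 0 in paired cells, or 8 and 0 in paired cells without those under 700000 TPM (25.7% and 10.3% of all genes). In Eng_ES-HSC minus Eng_BM-HSC the cycle list gave 0 and 4 and import 0 and 2.

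The smaller lists in all kept cells are read against the 8.55%, 35%, 29.1%, 40.9% and 35.6% of all genes that were lower in Eng_ES-HSC minus Eng_BM-HSC, Eng_ES-HSC minus FL_HSC, Eng_BM-HSC minus FL_HSC, Eng_ES-HSC minus ESC and Eng_BM-HSC minus ESC, and several shares lie near these. Of 14 electron carrier genes, 0 were higher in these 5 comparisons, and 1, 9, 9, 9 and 8 were lower in that order, with Etfb, the beta subunit of the electron transfer flavoprotein, at -4.53 in the second. In the same order 1, 9, 9, 9 and 7 of 16 complex IV assembly genes, 2, 7, 5, 8 and 7 of 14 assembly genes of complexes II, III and V, 3, 6, 5, 10 and 8 of 16 transcription and RNA genes, and 0, 4, 5, 4 and 4 of 9 regulators were lower and 0 higher. Of 8 antioxidant and uncoupling genes 3, 6, 7, 6 and 6 were lower, with 1 higher in each comparison of Eng_ES-HSC with Eng_BM-HSC and with ESC. Relative to ESC, the citric acid cycle list gave 0 higher and 16 lower in Eng_ES-HSC and 0 and 15 in Eng_BM-HSC, and import 0 and 16 in both. In FL_HSC minus ESC, where 10.7% of all genes were higher and 17.7% lower, the counts higher and lower were 1 and 1 for electron carriers, 4 and 2 and 0 and 1 for the assembly lists in the order above, 0 and 4 for transcription and RNA, 2 and 1 for antioxidant genes, 1 and 1 for regulators, and 1 and 8 for import, the last becoming 2 and 2 without the cells under 700000 TPM. Creb1, a transcription factor, gave 1.47 and Gabpa -1.36 in that comparison.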

How the data were processed

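The authors deposited a single table of natural log values, read here from the values themselves as ln(TPM + 1), for 316 mouse cells and 22073 rows. HISAT 0.1.6, Salmon 0.3.2 and GRCm38 are named, per the submitters' processing notes, without their roles. No annotation, library kit or treatment of multiply mapping reads is given in the sources used here. The 92 ERCC spike-in rows and 11 rows of introduced sequences were left out.

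The logarithm was undone to give TPM, and differences were taken on log2(TPM + 1). This pseudocount of 1 understates differences of low genes. A gene was detected at 1 TPM, and cells with at least 1000 detected genes were kept, 261 in all. Cells whose profiles correlated above 0.9 (Pearson r 0.942 to 0.988 in 3 pairs, next pair 0.839) were averaged as 1, which left 313 before that filter. The rows summed to 414503 to 962583 TPM per cell. Doublets were not called, since depth is unknown.

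The labels tie no cell to an animal or culture, so each group was 1 sample and no test was made. A gene was compared if it averaged 1 TPM in some group, and called at a difference of 1 in mean log2. For pairing, each cell of the smaller group was set beside the nearest unused cell of the other by detected genes, within 10%. Intervals of detection shares are 95% Clopper-Pearson ones that cover counting only, and a count of 0 allows up to 3 cells. Shared sequence was read from 31-base windows of GENCODE M21 transcripts, and promoters from RefSeq. The named members are the mitochondrial mRNAs, the 3 highest nuclear members of a complex, the 3 with the largest differences in each direction at a mean of 10 TPM and detection in 50% of the higher group, tissue isoforms and gene families. From these the text gives those its comparisons turn on. Of other lists, up to 2 genes per direction could be named. Members and lists were chosen with earlier results of these data known. Alternatives covered the pseudocount, filters on cells and genes, averaging, scaling, gene number, mitochondria-rich cells and subsets of cells. The differences and the pairing were tested on simulated data. Python 3.11.15, pandas 2.3.3, numpy 2.4.6, scipy 1.17.1 and matplotlib 3.10.9 were used.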

Additional observations from a re-analysis of the deposited data

How the results depend on the processing

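No paired analysis was possible because the cell numbers only name cells, each group is 1 library, and the differences come from no test. Rescaling to the ERCC spike-ins was not run, since they took at most a median of 0.0069% of TPM in a group. Pairing with at most 50% mitochondrial TPM gave under 5 pairs for Eng_ES-HSC and Eng_BM-HSC with ESC, and 4 FL_HSC cells with 1000 to 3000 genes were left without those under 700000 TPM, so neither gave values. The settings that limit mitochondrial TPM and gene number together, leave out cells under 700000 TPM, leave out Eng_BM-HSC cell 74, or leave out mRNAs with nuclear copies were chosen after the data had been seen. Of the values for sums, complexes and counts, 892 stayed within the spread between cells, or within 1.5 times for a count. Counts were graded by the members lower. Another 100 moved by more than this, and 40 of at least 1 changed sign. Differences under 1 could change sign and still be among the 892. Of 36 such differences, 18 kept their direction with 1000 to 3000 genes, 22 with at least 2000 genes and 28 without cells over 50% mitochondrial TPM. Without the mRNAs with nuclear copies 9 of 12 did. Of single members' differences and detection 609 stayed, 44 moved and 13 of at least 1 changed sign. None of these graded moves or changes followed a pseudocount of 0.1, odd-numbered cells, joined cells counted separately, or rescaling without mitochondrial rows. Nor did any follow leaving out cells with over 50% mitochondrial TPM, mRNAs with nuclear copies or cell 74. The same holds for another filter on genes and for detection at 0.1 TPM. The count of members higher was not graded. It did change in FL_HSC minus ESC without the cells over 50% mitochondrial TPM, as given above. The choice of cells limits what can be read. The direction of most nuclear differences between the engrafted groups and the others depends on which cells are set side by side. The cause was not tested.

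In all kept cells, the log2 differences of the sums in Eng_ES-HSC minus Eng_BM-HSC, Eng_ES-HSC minus FL_HSC, Eng_BM-HSC minus FL_HSC, Eng_ES-HSC minus ESC, Eng_BM-HSC minus ESC and FL_HSC minus ESC were 0.62, 0.66, 0.0367, -0.13, -0.76 and -0.79 for mitochondrial mRNA. They were 0.78, 0.60, -0.18, 0.14, -0.64 and -0.46 for nuclear subunits and -0.16, 0.0579, 0.21, -0.27, -0.11 and -0.33 for the ratio of both. For complex I they were 0.94, 0.41, -0.53, 0.31, -0.62 and -0.0977. For complex II they were -3.31, -5.53, -2.21, -4.62, -1.31 and 0.90. For complex III they were -0.61, -1.25, -0.64, -1.80, -1.19 and -0.55. For complex IV they were 1.10, 0.93, -0.17, -0.45, -1.55 and -1.38. For complex V they were 0.66, -0.31, -0.97, -0.49, -1.15 and -0.18. Sums, complexes and counts that moved follow by setting, counts by their lower members, and single members only where they changed sign. The mark (turned) stands before a value that was at least 1 in size in all kept cells and has the opposite sign. Complexes are read over their nuclear subunits.

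With a pseudocount of 10 the nuclear members higher and lower by 1 or more were 4 and 6 in Eng_ES-HSC minus Eng_BM-HSC, 0 and 45 in Eng_ES-HSC minus FL_HSC, 0 and 53 in Eng_BM-HSC minus ESC and 4 and 12 in FL_HSC minus ESC. With no minimum of detected genes the value was Cox7a2 (turned) -0.0101 in Eng_ES-HSC minus Eng_BM-HSC. Complex I -1.69 was found in Eng_ES-HSC minus ESC. 0 and 39 in Eng_ES-HSC minus Eng_BM-HSC were the nuclear members higher and lower. With at least 2000 genes the value was complex III (turned) 0.75 in Eng_ES-HSC minus FL_HSC. Complex III (turned) 0.66 was found in Eng_ES-HSC minus ESC. Complex III (turned) 0.25 was found in Eng_BM-HSC minus ESC. 36 and 8 in Eng_ES-HSC minus Eng_BM-HSC, 16 and 44 in Eng_ES-HSC minus FL_HSC, 9 and 40 in Eng_ES-HSC minus ESC and 15 and 17 in FL_HSC minus ESC were the nuclear members higher and lower. In cells with 1000 to 3000 genes the values were mitochondrial mRNA -0.69, nuclear subunits 2.97, the ratio -3.66, complex I 2.65, complex III (turned) 0.93, complex IV 4.08 and complex V 2.06 in Eng_ES-HSC minus FL_HSC. Mitochondrial mRNA -1.28, nuclear subunits 2.18, the ratio -3.47, complex II (turned) 0.15 and complex IV 2.93 were found in Eng_BM-HSC minus FL_HSC. Mitochondrial mRNA -2.08, nuclear subunits 3.02, the ratio -5.11, complex I 3.83, complex II -0.65, complex III (turned) 1.79, complex IV 2.17 and complex V 2.57 were found in Eng_ES-HSC minus ESC. Mitochondrial mRNA -2.68, nuclear subunits 2.23, the ratio -4.92, complex I 2.94, complex II (turned) 2.90, complex III (turned) 2.75, complex IV (turned) 1.02, complex V (turned) 1.99 and Uqcrc1 (turned) 0.54 were found in Eng_BM-HSC minus ESC. 34 and 16 in Eng_ES-HSC minus FL_HSC, 45 and 7 in Eng_BM-HSC minus FL_HSC, 28 and 9 in Eng_ES-HSC minus ESC and 44 and 2 in Eng_BM-HSC minus ESC were the higher and lower nuclear members. In cells with 3000 to 5000 genes the values were complex II (turned) 2.61, complex III (turned) 1.14, complex IV (turned) 0.33 and complex V (turned) 1.19 in Eng_BM-HSC minus ESC. 11 and 39 in Eng_BM-HSC minus FL_HSC, 34 and 9 in Eng_BM-HSC minus ESC and 52 and 3 in FL_HSC minus ESC were the higher and lower nuclear members. In cells paired by gene number the values were Atp5g2 (turned) 0.18, Sdhb (turned) 0.12 and Uqcrh (turned) 0.48 in Eng_ES-HSC minus Eng_BM-HSC. Mitochondrial mRNA -0.52, nuclear subunits 2.91, the ratio -3.43, complex I 3.05, complex III (turned) 2.15, complex IV 3.95 and complex V 2.24 were found in Eng_ES-HSC minus FL_HSC. Mitochondrial mRNA -2.02, nuclear subunits 3.01, the ratio -5.03, complex I 4.05, complex II (turned) 0.35, complex III (turned) 3.01, complex IV 2.62, complex V 3.08 and Ndufs6 (turned) 0.58 were found in Eng_ES-HSC minus ESC. Mitochondrial mRNA -2.34, nuclear subunits 1.85, the ratio -4.19, complex I 2.05, complex II (turned) 2.64, complex III (turned) 1.95, complex IV (turned) 0.0927, complex V (turned) 1.31 and Ndufs6 (turned) 0.999 were found in Eng_BM-HSC minus ESC. 36 and 5 in Eng_ES-HSC minus Eng_BM-HSC, 41 and 13 in Eng_ES-HSC minus FL_HSC, 12 and 15 in Eng_BM-HSC minus FL_HSC, 52 and 3 in Eng_ES-HSC minus ESC, 42 and 5 in Eng_BM-HSC minus ESC and 45 and 2 in FL_HSC minus ESC were the nuclear members higher and lower. With the log2 of mean TPM the value was complex II (turned) 0.0814 in Eng_BM-HSC minus ESC. 18 and 33 in Eng_ES-HSC minus FL_HSC, 1 and 21 in Eng_BM-HSC minus FL_HSC, 16 and 25 in Eng_ES-HSC minus ESC, 5 and 20 in Eng_BM-HSC minus ESC and 15 and 4 in FL_HSC minus ESC were the nuclear members higher and lower. With medians over cells the nuclear members higher and lower by 1 or more were 14 and 15 in FL_HSC minus ESC. In even-numbered cells the value was Cox7a2 (turned) -0.40 in Eng_ES-HSC minus Eng_BM-HSC. In cells with 1000 to 3000 genes and at most 50% mitochondrial TPM the nuclear members higher and lower by 1 or more were 21 and 36 in Eng_ES-HSC minus FL_HSC and 31 and 17 in Eng_BM-HSC minus FL_HSC. In cells with 3000 to 5000 genes and at most 50% mitochondrial TPM the values were complex II (turned) 0.88, complex III (turned) 0.24 and complex V (turned) 0.20 in Eng_BM-HSC minus ESC. 8 and 46 in Eng_BM-HSC minus FL_HSC, 11 and 33 in Eng_BM-HSC minus ESC and 30 and 12 in FL_HSC minus ESC were the higher and lower nuclear members. In paired cells with at most 50% mitochondrial TPM the value was complex III (turned) 0.62 in Eng_ES-HSC minus FL_HSC. 25 and 11 in Eng_ES-HSC minus Eng_BM-HSC, 29 and 26 in Eng_ES-HSC minus FL_HSC, 14 and 26 in Eng_BM-HSC minus FL_HSC and 27 and 9 in FL_HSC minus ESC were the higher and lower nuclear members. Without the cells under 700000 TPM the nuclear members higher and lower by 1 or more were 32 and 3 in FL_HSC minus ESC. In cells with 3000 to 5000 genes and no total under 700000 TPM the values were the ratio -2.92, complex II (turned) 2.97, complex III (turned) 1.36, complex IV (turned) 0.48, complex V (turned) 1.33 and Uqcrc1 (turned) 0.14 in Eng_BM-HSC minus ESC. Mitochondrial mRNA -2.31, the ratio -3.52, complex IV (turned) 0.32 and complex V 1.86 were found in FL_HSC minus ESC. 41 and 7 in Eng_BM-HSC minus ESC and 65 and 2 in FL_HSC minus ESC were the higher and lower nuclear members. In paired cells with no total under 700000 TPM the values were Sdhb (turned) 0.29 and Uqcrh (turned) 0.75 in Eng_ES-HSC minus Eng_BM-HSC. Complex II -0.82 and complex III (turned) 1.18 were found in Eng_ES-HSC minus FL_HSC. Complex II (turned) 0.40 was found in Eng_BM-HSC minus FL_HSC. Mitochondrial mRNA -2.03 and complex IV (turned) 0.0754 were found in FL_HSC minus ESC. 38 and 4 in Eng_ES-HSC minus Eng_BM-HSC, 32 and 19 in Eng_ES-HSC minus FL_HSC, 13 and 35 in Eng_BM-HSC minus FL_HSC and 54 and 2 in FL_HSC minus ESC were the nuclear members higher and lower. The pairs of Eng_ES-HSC and Eng_BM-HSC with ESC were the same cells as without that limit.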
